A study of Mus musculus with 27 samples.

Results

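The change between 6 and 8 weeks of age was followed in pancreatic islets of Langerhans from female NOD.Rag1-/- mice, called Rag1ko here. They were chosen by title: 3 mice of 6 weeks and 6 mice of 8 weeks, 9 of the 27 mice of the series, each hybridised to its own Affymetrix Mouse Gene 1.0 ST array. The other 18 mice were female NOD mice and female NOD.Batf3-/- mice (Batf3ko), also 3 of 6 weeks and 6 of 8 weeks in each genotype, and they enter only where the Rag1ko change is set against theirs. All 27 mice were on the NOD/ShiLt background, were kept untreated in a specific pathogen-free facility, and gave total islet RNA. The labels count them as biological replicates and do not say which mice were littermates or shared an islet isolation.

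NOD mice develop autoimmune diabetes spontaneously, through an attack of lymphocytes on the insulin-producing beta cells. Rag1 encodes a subunit of the recombinase that assembles antigen receptor genes, so mice without it make no mature T or B cells and do not develop this diabetes, while innate immune cells remain. Islets are small clusters of hormone-secreting cells inside a pancreas that is mostly acinar tissue, the exocrine cells that make and secrete digestive enzymes, and an islet preparation can carry acinar and ductal cells with it. The comparison of the ages in Rag1ko mice asks how islets change over this period when no mature lymphocytes are present.

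All levels are log2 values after quantile normalization over the 27 arrays, and a difference of 1 is a doubling. A gene was called when the limma test of 8 minus 6 weeks gave a Benjamini-Hochberg adjusted p under 0.05 over all 19938 genes tested. The deposited arrays of the 2 ages did not share a distribution: array medians were 5.31 to 5.33 in Rag1ko mice of 6 weeks and 4.95 to 4.98 at 8 weeks, and the other genotypes showed the same gap. Age cannot be told apart from whatever set those distributions apart. The first principal component of the 9 Rag1ko arrays held 61.1% of the variance and separated the ages, and 6-week mouse 1 lay furthest out, at -59.9 against -37.6 and -39.0 for the other 6-week mice. The lymphocyte markers Cd3d, Cd3e, Cd3g, Cd8a, Cd79a and Ms4a1 stayed between 2.25 and 4.95 in the 9 arrays. Cd4, a further marker, was not called between the ages (-0.24, limma adjusted p = 0.52), and its levels are not given here. Rag1 itself read 3.07, 3.98 and 3.44 at 6 weeks and 3.63 to 3.93 at 8 weeks, a difference of 0.26 ± 0.14 (SE) that was not called (adjusted p = 0.16); the labels do not say which part of the gene the knockout removes, so its probe set does not check the genotype.

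Between 6 and 8 weeks, 6575 of the 19938 genes were called in Rag1ko islets (33%), 3634 of them higher (18.2%) and 2941 lower (14.8%). The deposited values without renormalization called 971 higher and 8576 lower, a share of 10.2% higher against 55.3%, and arrays centred on their medians called 5245 higher and 2537 lower (67.4% higher); the median difference of all genes moved from 0.04 to -0.25 and 0.11. Larger differences depended on them less: 106 genes rose at least 2-fold (0.532%) and 390 fell at least 2-fold (1.96%). Of these 496, 490 were called with the same sign under all 4 scalings tried. The all-gene medians of the scalings lie closer together than a 2-fold difference, so the cut largely set this agreement. Of 1027 olfactory receptor genes, which are known from the sensory neurons of the nose, 261 were called (25.4%), but 6 by 2-fold or more (0.584%). Without 6-week mouse 1 the calls fell to 4441, of which 2405 were higher.

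The largest differences of the comparison were falls, and genes of acinar cells and the Reg family were prominent among them. All 28 measured members of the acinar list fell, with no overlap between the ages (31.8% of all genes had none), and their median difference was -4.56 (23.6-fold) where the median of all genes was 0.04. The mean of the 28 genes was 12.05, 11.71 and 11.75 in the 6-week mice and ranged from 6.17 to 8.90, with a mean of 7.45 ± 0.95 (SD, n = 6), in the 8-week mice. Acinar transcripts were thus high and nearly equal in the 6-week preparations, and low but spread over several doublings in the 8-week preparations. In RNA from whole islet preparations, fewer acinar cells and less of these transcripts per cell cannot be told apart. The same list fell in the other genotypes, by a median of 3.31 in NOD and 4.49 in Batf3ko islets. None of the 28 members was called in the difference of NOD from Rag1ko (3.13% of all genes were) or of Batf3ko from Rag1ko (0.0251%). At shares this low, none called among 28 does not show that the falls were equal.

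Cuzd1, a protein of the zymogen granule membrane, led the acinar list: it read 11.77, 11.02 and 11.20 at 6 weeks and 3.95 to 6.77 (median 5.47) at 8 weeks, a 65.4-fold difference (log2 -6.03 ± 0.51 SE, adjusted p = 1.6e-09). Spink1, an inhibitor of trypsin made by acinar cells, read 12.16, 12.10 and 12.00 at 6 weeks and 4.64 to 8.17 (median 6.37) at 8 weeks (-5.95 ± 0.70, adjusted p = 4.9e-07). Gp2, the major glycoprotein of the zymogen granule membrane, went from 12.03, 11.75 and 11.86 to 4.70 to 7.58 (-5.94 ± 0.68, adjusted p = 3.1e-07). In these 3 genes the 6-week mice were nearly equal, and even the highest 8-week mouse lay several doublings below them. Prss3, a trypsinogen, fell by 5.89 ± 0.53 and Sycn, the granule protein syncollin, by 5.37 ± 0.71. Outside the list, the largest falls were of genes that acinar cells also make: Serpini2, a serpin of the exocrine pancreas, fell by 6.72 ± 0.49 (105-fold), Pdia2, a disulfide isomerase of the pancreas, by 5.71 ± 0.48, and Cckar, the receptor through which cholecystokinin drives enzyme secretion, by 5.49 ± 0.25. Tff2, a secreted trefoil peptide, fell by 6.19 ± 0.43, Tmed11, of the p24 family of vesicle proteins, by 5.86 ± 0.31, and Klk1b5, one of a cluster of near-identical kallikrein genes whose probes may read one another, by 5.80 ± 0.44.

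**Figure D1:**
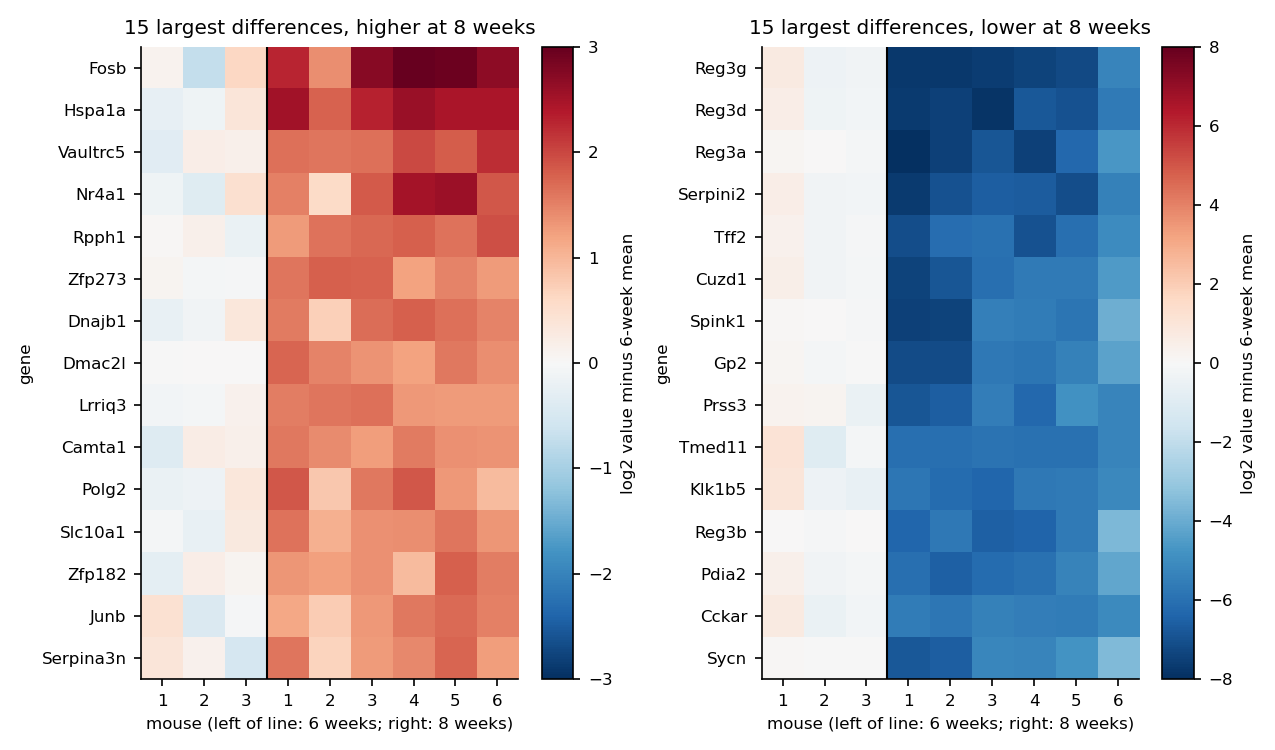
The 15 genes with the largest rises and the 15 with the largest falls among called genes whose ages did not overlap, one column per Rag1ko mouse; colour is the log2 value minus the mean of the 3 six-week mice, on a scale of its own in each panel. The falls are larger than the rises, from -5.37 for Sycn to -7.15 for Reg3g, and 8-week mouse 6 is the palest in most rows of the right panel.

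The transcription factors that set acinar identity fell too, by less than most of the enzymes. The 3 described here were singled out after their values were seen. Ptf1a, which specifies the exocrine pancreas, read 8.36, 6.28 and 6.59 at 6 weeks and 3.80 to 4.43 at 8 weeks (-3.02 ± 0.29, adjusted p = 1.1e-08). Rbpjl, its partner in the PTF1 complex of adult acinar cells, went from 8.89, 7.37 and 7.61 to 4.17 to 4.80 (-3.56 ± 0.24, adjusted p = 2.1e-11). Bhlha15, which organises the secretory apparatus, went from 9.79, 8.66 and 8.83 to 7.53 to 8.41 (-1.09 ± 0.22, adjusted p = 0.00039). The ages did not overlap in any of the 3, and 6-week mouse 1 was the highest of the 9 mice in each. Ptf1a and Rbpjl began lower than Cuzd1, Spink1 and Gp2, and at 8 weeks lay below 5.09, the median of all probe sets. That left less room for a fall, so the sizes are not directly comparable.

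The Reg genes, which encode small secreted lectins of the pancreas and gut that are induced by injury and inflammation, held the lowest values of the whole comparison. Of 7 measured, 6 fell without overlap between the ages, with a list median of -5.71, and Reg4 did not pass (-0.03). Reg3g read 10.70, 9.59 and 9.74 at 6 weeks and 2.27 to 4.74 (median 2.51) at 8 weeks, a 142-fold difference (-7.15 ± 0.40 SE, adjusted p = 7.4e-13). Mouse 6 alone stood above the rest of the 8-week group, and it remained far below every 6-week mouse. Reg3d went from 11.41, 10.53 and 10.67 to 3.01 to 5.24 (-7.07 ± 0.48, adjusted p = 2.7e-11) and Reg3a from 11.93, 11.85 and 11.61 to 2.88 to 7.13 (-6.95 ± 0.78, adjusted p = 2e-07). Reg3b, Reg1 and Reg2 fell by 5.71 ± 0.74, 4.35 ± 0.67 and 3.56 ± 0.93. The 6 that fell are close paralogs on chromosome 6, and some of their probes may read more than one of them. With the mean of the acinar list as a covariate, Reg3g was still called (-5.78, adjusted p = 7.6e-06). Reg3a and Reg3b were not, and Reg1 turned to a rise of 0.85 (adjusted p = 0.031). That mean nearly follows age, so a fit with it cannot separate the 2.

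**Figure D2:**
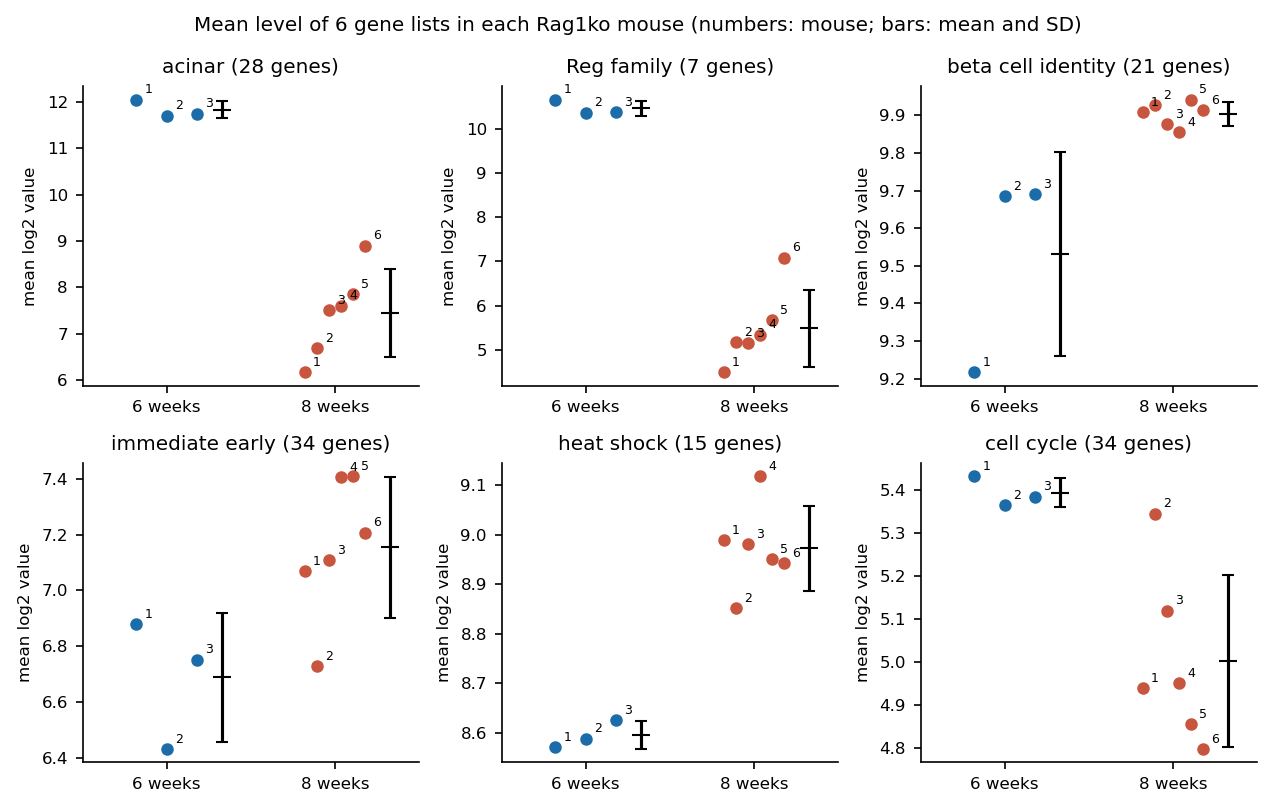
Mean log2 value of 6 gene lists in each Rag1ko mouse (points numbered by mouse), with the group mean and SD as bars; each panel has its own axis. The acinar and Reg means do not overlap between the ages, 6-week mouse 1 is lowest for the beta cell list at 9.22, and 8-week mouse 2 is nearest to the 6-week mice for the immediate early and cell cycle lists.

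The promoters of the leading genes are shown because so many acinar genes fell together. The PTF1 complex is known to bind an E-box beside an RBPJ-type motif. In the RefSeq promoter windows of 300 bases (GRCm38.p6), the letters TGGGAA were found on either strand in 25.6% of all 32851 windows and the E-box letters CACCTG in 20.2%. Of 23 windows of acinar genes (22 of 28 genes matched), 13 held TGGGAA and 12 held CACCTG; of the 7 windows of Reg genes, 5 held each. TATAAA stood in 13.6% of all windows, 7 of the 23 acinar windows and 4 of the 7 Reg windows. A match is a description of the letters and not a bound site. In the windows below, chosen after the search, capitals mark these matches on either strand; the window of Cuzd1 held none of the 3 motifs. Reg3g lies at chr6:78468825-78469124, minus strand, Reg3d at chr6:78378816-78379115, minus strand, and Sycn at chr7:28540635-28540934, plus strand.
Reg3g: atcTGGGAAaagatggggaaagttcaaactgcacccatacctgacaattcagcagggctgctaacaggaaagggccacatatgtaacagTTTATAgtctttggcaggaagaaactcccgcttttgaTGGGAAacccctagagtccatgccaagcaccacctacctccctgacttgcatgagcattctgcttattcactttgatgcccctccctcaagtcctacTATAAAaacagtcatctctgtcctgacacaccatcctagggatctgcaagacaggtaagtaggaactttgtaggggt
Reg3d: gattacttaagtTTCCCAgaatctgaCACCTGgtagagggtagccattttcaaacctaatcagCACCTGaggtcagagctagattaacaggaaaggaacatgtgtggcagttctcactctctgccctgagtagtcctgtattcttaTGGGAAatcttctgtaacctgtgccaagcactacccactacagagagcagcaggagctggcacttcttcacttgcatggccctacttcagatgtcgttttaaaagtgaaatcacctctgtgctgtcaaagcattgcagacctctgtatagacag
Sycn: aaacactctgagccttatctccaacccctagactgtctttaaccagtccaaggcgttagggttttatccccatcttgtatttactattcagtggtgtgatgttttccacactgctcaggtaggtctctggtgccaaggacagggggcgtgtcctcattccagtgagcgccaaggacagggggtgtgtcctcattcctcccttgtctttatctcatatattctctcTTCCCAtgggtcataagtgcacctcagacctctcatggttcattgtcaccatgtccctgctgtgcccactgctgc

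Duct and progenitor markers moved less uniformly than acinar ones, where 18.2% of all genes were called higher and 14.8% lower. Of 9 duct genes measured, 4 fell and 1 rose. Muc1, a mucin of epithelial surfaces, read 10.17, 8.63 and 8.94 at 6 weeks and 4.01 to 4.97 at 8 weeks (-4.71 ± 0.27, adjusted p = 1e-12). Krt19, the duct keratin, fell by 1.70 ± 0.33, Sox9, a factor of duct and progenitor cells, by 1.26 ± 0.18, and Onecut1, a factor of pancreatic progenitors and ducts, by 1.25 ± 0.16. Tspan8, a membrane tetraspanin, rose by 0.76 ± 0.16. Ages did not overlap in any of these 5 genes, and in Muc1, Krt19, Sox9 and Onecut1 mouse 1 was again the highest 6-week mouse.

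Endocrine genes were higher at 8 weeks after quantile normalization, by amounts far smaller than the acinar falls. Over all genes 18.2% were called higher and 14.8% lower. Of 21 measured genes of beta cell identity, 13 rose and none fell, with a median difference of 0.40. Of 15 genes of secretory granules and prohormone processing, 9 rose and 1 fell (median 0.39), and of 16 genes of exocytosis and ion channels 8 rose and none fell (median 0.28). Of 10 genes of alpha, delta and PP cells, 5 rose and none fell (median 0.43). Under the deposited values these medians were -0.02, -0.10, 0.10 and -0.12, and under median centring 0.34, 0.26, 0.46 and 0.24, so the direction depended on the scaling for all but exocytosis and ion channels; all 4 stayed above the all-gene median of the same scaling. Acinar transcripts moved the opposite way in the same mice, and their part in the endocrine rises was not tested. With the acinar mean as a covariate, which nearly follows age, the beta cell median was 0.27 with 4 genes called higher.

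Ins2, an insulin gene, read 12.27, 12.37 and 12.35 at 6 weeks and 12.73 to 12.85 at 8 weeks (0.45 ± 0.07, adjusted p = 9.6e-06), but fell by 0.30 in the deposited values. Iapp, the amyloid peptide released with insulin, behaved alike, at 0.56 ± 0.08 after normalization and -0.20 in the deposited values. Both lie near the top of the scale, whose highest deposited value was 13.8. Over the 21 genes the deposited values called 3 higher and 4 lower, where 971 of all 19938 genes were called higher and 8576 lower. Abcc8, the sulfonylurea receptor subunit of the ATP-sensitive potassium channel, read 10.06, 10.73 and 10.78 at 6 weeks and 11.31 to 11.42 at 8 weeks (0.85 ± 0.12, adjusted p = 4.3e-06), and Ppp1r1a, a phosphatase inhibitor of beta cells, went from 10.21, 10.69 and 10.75 to 11.26 to 11.49 (0.80 ± 0.12, adjusted p = 8.7e-06). Both were also called higher in the deposited values and after median centring. Ucn3, a peptide of mature beta cells, rose by 0.76 ± 0.11 and the zinc transporter Slc30a8 by 0.63 ± 0.14, calls that the deposited values did not give. In the other endocrine cells, Sst, the hormone of delta cells, rose by 0.52 ± 0.08 (not called in the deposited values) and Hhex, a delta cell factor, by 0.54 ± 0.12, while Gcg of alpha cells (0.20 ± 0.11, adjusted p = 0.16) and Ppy of PP cells (0.57 ± 0.25, adjusted p = 0.077) did not pass. Among granule genes, Pcsk1n, an inhibitor of the prohormone convertase, rose by 0.85 ± 0.09, Cpe, the carboxypeptidase that trims prohormones, by 0.75 ± 0.09, and Chga, a granule core protein, by 0.59 ± 0.08. In the deposited values Cpe was not called and Chga was at -0.11. Syt4, a synaptotagmin, and Slc8a1, the sodium-calcium exchanger, rose by 0.72 ± 0.17 and 0.75 ± 0.14. In Abcc8, Ppp1r1a, Ucn3 and Slc30a8 alike, 6-week mouse 1 was the lowest of the 9, and without it 9 of the 21 beta cell genes were called higher and 1 lower.

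Genes that mature beta cells keep low, or that mark immature beta cells, moved the other way, where 14.8% of all genes were called lower. Of 14 measured, 7 fell and 1 rose, with a median of -0.49 that kept its sign under the deposited values (-0.79) and median centring (-0.43). Mgst1, a microsomal glutathione transferase, read 6.77, 5.42 and 5.02 at 6 weeks and 2.84 to 3.82 at 8 weeks (-2.33 ± 0.34, adjusted p = 1.1e-05). Ldha, lactate dehydrogenase A, the classic disallowed gene of beta cells, went from 8.08, 6.50 and 6.52 to 5.30 to 6.20 (-1.28 ± 0.33, adjusted p = 0.0044), and its call was lost without 6-week mouse 1. Oat, ornithine aminotransferase, fell by 1.05 ± 0.21, Lmo4, a LIM-only transcriptional regulator, by 1.03 ± 0.23, and Rest, the repressor of neuronal genes, by 0.74 ± 0.17. Mouse 1 was the highest 6-week mouse in all 5. With the acinar mean, which nearly follows age, as a covariate the list median was -0.69 and 3 members were called lower.

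**Figure D3:**
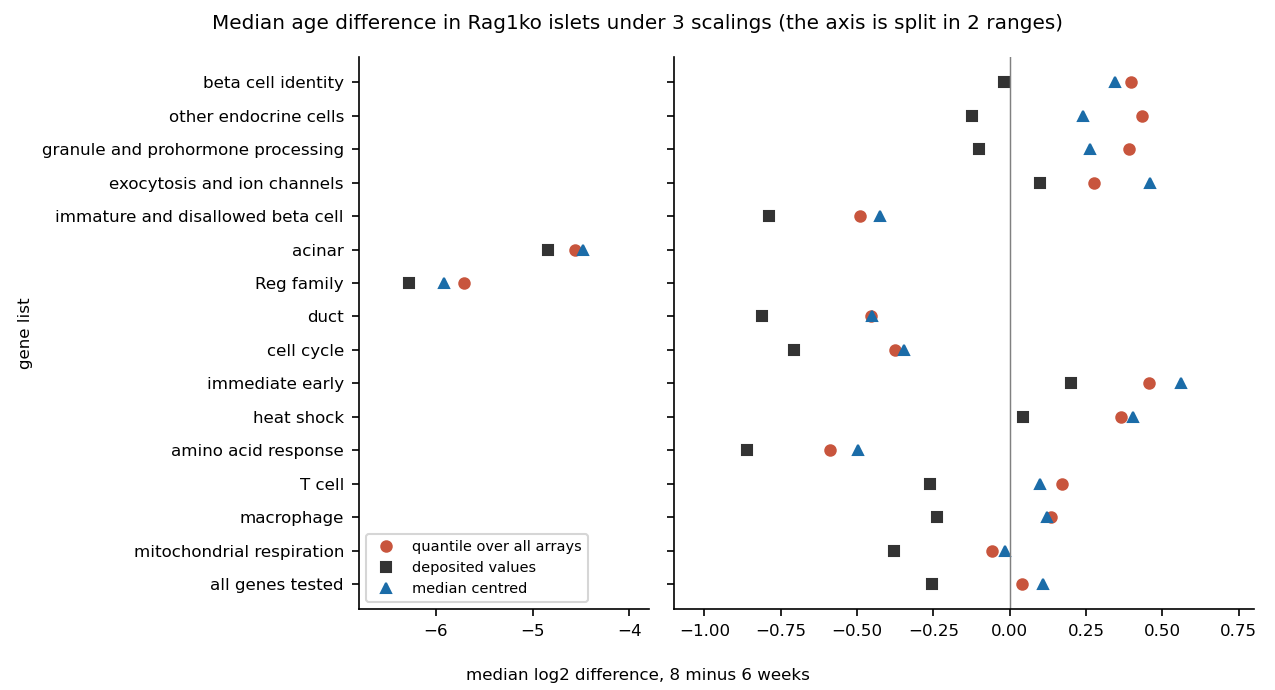
Median log2 difference (8 minus 6 weeks) of 15 gene lists and of all genes in Rag1ko islets under quantile normalization, the deposited values and median centring, on an axis split in 2 ranges. The acinar and Reg medians stay below -4 under each scaling, while the beta cell median goes from 0.40 to -0.02 and the all-gene median from 0.04 to -0.25.

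Proliferation genes were lower at 8 weeks, where 18.2% of all genes were called higher and 14.8% lower. Of 34 cell cycle genes measured, 16 fell and 1 rose, with a median of -0.37 that was -0.71 in the deposited values and -0.35 after median centring. Ube2c, a ubiquitin-conjugating enzyme of mitotic exit, read 6.34, 6.10 and 5.91 at 6 weeks and 4.21 to 5.79 (median 4.45) at 8 weeks (-1.46 ± 0.27, adjusted p = 0.00017). Cdk1, the mitotic kinase, went from 5.10, 5.29 and 5.30 to 3.83 to 4.58 (-1.08 ± 0.26, adjusted p = 0.002) and Nusap1, a spindle protein, fell by 0.81 ± 0.17. The DNA topoisomerase Top2a (a mean of 5.26 ± 0.23 (SD, n = 3) at 6 weeks and 4.27 ± 0.71 (SD, n = 6) at 8 weeks, limma adjusted p = 0.026) and the proliferation marker Mki67 (-0.94 ± 0.34, adjusted p = 0.036) were also called, but their ages overlapped, because 8-week mouse 2 reached 5.43 and 5.71. Mouse 2 had the highest cell cycle mean of the 8-week group, 5.34 against 4.80 to 5.12 in the other 5 and 5.36 to 5.43 at 6 weeks. The count of falls was 9 without 6-week mouse 1 and 10 without 6-week mouse 3. The array does not say which cells divided. Of the cell cycle inhibitors, Cdkn2a, which rises in beta cells with age, rose by 0.70 ± 0.13 (adjusted p = 0.00024) and its neighbour Cdkn2b by 0.44 ± 0.14 (adjusted p = 0.014), and neither was called in the deposited values. Both belong to the p53 and senescence list, of whose 13 measured genes 3 rose and 1 fell. A further Cdkn2 gene of that list was not called (-0.42, limma adjusted p = 0.09). Igf1, a growth factor of mesenchymal cells and macrophages, read 7.68, 5.87 and 5.96 at 6 weeks and 3.17 to 4.07 at 8 weeks (-2.72 ± 0.29, adjusted p = 9.7e-08). It was 1 of 4 genes of 22 in the growth factor list that fell, where 5 rose. Among genes induced by lactogenic hormones, the list of 11 held 2 rises and 3 falls: Tph2, which makes serotonin, rose by 1.09 ± 0.23, and Cish, an inhibitor of cytokine receptor signalling, fell by 1.13 ± 0.30.

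Immediate early genes, which neurons and endocrine cells induce within minutes of depolarisation, calcium entry or stress, included the largest rise. Of 34 measured, 13 rose and 2 fell, where 18.2% of all genes were called higher and 14.8% lower. The list median was 0.46 (0.20 in the deposited values and 0.56 after median centring). Fosb, an AP-1 subunit, read 8.43, 7.61 and 8.95 at 6 weeks and 9.72 to 11.41 (median 11.04) at 8 weeks, a 5.73-fold rise (2.52 ± 0.35 SE, adjusted p = 5.6e-06). Nr4a1, an orphan nuclear receptor, went from 6.91, 6.67 and 7.51 to 7.60 to 9.60 (1.81 ± 0.35, adjusted p = 0.00029), and Junb, another AP-1 subunit, from 7.21, 6.32 and 6.72 to 7.51 to 8.45 (1.34 ± 0.20, adjusted p = 1.3e-05). These 3 are among the leading rises, which were chosen for ages that do not overlap, so every 8-week mouse exceeded every 6-week mouse. Npas4, a calcium-dependent factor of excitable cells, rose by 1.71 ± 0.40 (adjusted p = 0.0016) with overlapping ages, and Ier2 (0.69 ± 0.28, adjusted p = 0.055) and Atf3 (0.86 ± 0.42, adjusted p = 0.12) did not pass. Myc fell by 1.52 ± 0.28. Gem, a small GTPase that damps calcium channels and is not in the list, rose by 0.99 ± 0.25. The list mean was 6.88, 6.43 and 6.75 at 6 weeks and 6.73 to 7.41 at 8 weeks, with mouse 2 the lowest of the 8-week group and inside the 6-week range. Without that mouse 19 genes rose, and without 6-week mouse 2 there were 9 rises and 3 falls. The deposited values called 7 of the list higher and 4 lower, where 971 of all 19938 genes were called higher and 8576 lower.

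Most heat shock genes rose after quantile normalization, where 18.2% of all genes were called higher and 14.8% lower. Of 15 measured, 10 rose and 3 fell (median 0.36, 0.04 in the deposited values and 0.40 after median centring), and the list means did not overlap: 8.57 to 8.63 at 6 weeks and 8.85 to 9.12 at 8 weeks. Hspa1a, the inducible HSP70, read 7.30, 7.42 and 7.91 at 6 weeks and 9.32 to 10.13 (median 9.99) at 8 weeks, a 5.10-fold rise (2.35 ± 0.16 SE, adjusted p = 1.7e-11). Its near-identical copy Hspa1b was not analysed here, and probes may read both. Dnajb1, the HSP40 co-chaperone, went from 7.22, 7.33 and 7.77 to 8.15 to 9.23 (1.48 ± 0.21, adjusted p = 5.3e-06), and the nucleotide exchange factor Hsph1 rose by 0.90 ± 0.15 and the constitutive HSP70 Hspa8 by 0.80 ± 0.09. Cryab, a small heat shock protein, fell by 0.76 ± 0.21, a call that was lost without 6-week mouse 1. Mouse 2 was the lowest of the 8-week mice for Hspa1a, Dnajb1 and Hsph1. The heat shock element letters GAANNTTC stood in 7.86% of all promoter windows and in 9 of 17 windows of this list (12 of 15 genes matched). The window of Hspa1a, at chr17:34972107-34972406 on the minus strand, is shown with that element and a CCAAT box in capitals (CCAAT or its complement is in 37.4% of all windows). The window of Fosb held neither CRE letters (TGACGTCA, in 1.79% of all windows) nor a CArG box.
Hspa1a: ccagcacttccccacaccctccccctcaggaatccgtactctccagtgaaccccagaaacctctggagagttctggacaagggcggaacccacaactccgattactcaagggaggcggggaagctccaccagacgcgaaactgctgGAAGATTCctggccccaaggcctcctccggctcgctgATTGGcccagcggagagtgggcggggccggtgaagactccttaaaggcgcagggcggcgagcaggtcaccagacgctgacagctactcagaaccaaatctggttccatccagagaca

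Stress genes of the endoplasmic reticulum moved in both directions, where 18.2% of all genes were called higher and 14.8% lower. Over all 19938 genes the deposited values called 971 higher and 8576 lower. Of 23 genes of the unfolded protein response they called 4 higher and 11 lower (median -0.30). After quantile normalization 8 of these 23 rose and 7 fell (median 0.08). Among the falls, Sel1l, the adaptor of the degradation ligase, read 10.29, 9.21 and 9.53 at 6 weeks and 7.55 to 7.87 at 8 weeks (-1.92 ± 0.15, adjusted p = 2.9e-10), and Edem1, which passes misfolded glycoproteins to it, Herpud1, another part of that pathway, and the transcription factor Xbp1 fell by 0.98 ± 0.15, 0.89 ± 0.17 and 0.76 ± 0.09. Dnajb9, an HSP40-type chaperone, had the largest rise, at 0.81 ± 0.10. Of 16 genes of the amino acid response, driven by ATF4, 9 fell and 2 rose, with a median of -0.59 (-0.86 in the deposited values), and 6 fell without 6-week mouse 1. Nupr1, a stress-induced nuclear protein abundant in stressed acinar cells, went from 11.35, 10.49 and 10.71 to 6.70 to 8.10 (-3.29 ± 0.34, adjusted p = 6.6e-08). Phgdh and Psat1, consecutive enzymes of serine synthesis, fell by 1.99 ± 0.23 and 1.47 ± 0.20, and Aldh1l2, of mitochondrial folate metabolism, by 1.17 ± 0.22. Ddit4, an inhibitor of mTORC1, rose by 1.20 ± 0.20. Cat, catalase, fell by 1.79 ± 0.21, 1 of 3 falls and 2 rises among 14 oxidative stress genes. With the acinar mean as a covariate, Nupr1 (-1.07, adjusted p = 0.077), Aldh1l2 (-0.70, adjusted p = 0.28) and Herpud1 (-0.65, adjusted p = 0.22) were not called. Sel1l (-1.61, adjusted p = 0.00051), Phgdh (-1.83), Psat1 (-1.31), Edem1 (-0.93), Xbp1 (-0.55) and Dnajb9 (0.79) kept their calls. The acinar mean nearly follows age, so kept and lost calls do not sort genes by their relation to acinar transcripts.

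Clock genes shifted moderately, where 18.2% of all genes were called higher and 14.8% lower. Of 16 measured, 7 rose and 2 fell (median 0.30, 0.05 in the deposited values and 0.41 after median centring), but without 6-week mouse 1 the counts were 2 and 0. Cry2, a repressor of the clock, read 6.73, 6.82 and 6.67 at 6 weeks and 7.47 to 8.54 at 8 weeks (1.04 ± 0.19, adjusted p = 0.00012). Nr1d1 and Per1, also repressors, rose by 0.71 ± 0.19 and 0.63 ± 0.19, and Arntl, the activator BMAL1, fell by 0.63 ± 0.22 (adjusted p = 0.029).

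The microRNA genes of the miR-7 family, an islet-enriched microRNA, were named after their values were seen. The mature 5′ products of its 3 loci, and the 3p product of Mir148a, are shown with the seed (bases 2 to 8) in capitals, as RefSeq gives them: Mir7-1 and Mir7-2 encode the same miR-7a-5p, and miR-7b-5p shares its seed. The array reads transcripts of the loci and does not resolve the mature arms.
mmu-miR-7a-5p: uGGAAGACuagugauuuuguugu
mmu-miR-7b-5p: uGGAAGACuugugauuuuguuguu
mmu-miR-148a-3p: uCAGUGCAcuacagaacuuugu

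Mir7b read 6.45, 7.02 and 6.97 at 6 weeks and 8.22 to 9.10 (median 8.85) at 8 weeks, a 3.95-fold rise (1.98 ± 0.34 SE, adjusted p = 7.2e-05) with no overlap between the ages. Mir7-1 rose by 0.91 ± 0.26 (adjusted p = 0.0092) and Mir7-2 by 1.01 ± 0.36 (adjusted p = 0.03), but neither was called in the deposited values and the second was lost when any 1 of the 6-week mice was left out. Mir148a, which has another seed, fell by 1.26 ± 0.29 and Mir216b, a microRNA of the exocrine pancreas, by 0.87 ± 0.18. Of 300 microRNA genes tested, 59 rose and 23 fell (27.3% called against 33% of all genes).

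Among the other leading rises were 2 short noncoding RNAs. Vaultrc5, a vault RNA, read 4.17, 4.73 and 4.67 at 6 weeks and 6.12 to 6.73 at 8 weeks (1.82 ± 0.19, adjusted p = 5.3e-08), and Rpph1, the RNA of ribonuclease P, went from 9.99, 10.11 and 9.76 to 11.23 to 11.89 (1.67 ± 0.14, adjusted p = 2.3e-09). Zfp273 and Zfp182, zinc finger genes, rose by 1.52 ± 0.13 and 1.36 ± 0.18, Camta1, a calmodulin-binding transcription activator, by 1.42 ± 0.12, Dmac2l by 1.47 ± 0.09 and Lrriq3 by 1.44 ± 0.16. Polg2, the accessory subunit of the mitochondrial DNA polymerase, rose by 1.40 ± 0.25, Slc10a1, a bile acid transporter, by 1.40 ± 0.20, and Serpina3n, an inflammation-induced serpin, by 1.33 ± 0.33. Ages did not overlap in any of these genes, because the choice of leading genes required it.

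Few lymphocyte markers were called, where 33% of all genes were. Of 17 T cell genes 1 rose and 1 fell, of 14 B and plasma cell genes 1 rose, and of 13 NK cell genes none was called. Cd3d read 2.65, 2.66 and 2.81 at 6 weeks and 2.25 to 3.32 at 8 weeks (0.25 ± 0.41, adjusted p = 0.67), Cd3e 4.53 to 4.58 and 4.45 to 4.86, and Ms4a1, a B cell marker, 2.29 to 2.99 and 3.11 to 3.72 (0.58 ± 0.39, adjusted p = 0.26). Cd79a, a chain of the B cell receptor, was at 0.68 ± 0.28 (adjusted p = 0.059) with no overlap between the ages. The median of the B and plasma cell list was 0.33 (-0.07 in the deposited values), and its means did not overlap, at 3.54 to 3.58 at 6 weeks and 3.73 to 3.89 at 8 weeks. Cd8b1 rose by 0.96 ± 0.21 at levels of at most 4.25 and was not called in the deposited values, and Cd247, the zeta chain of the T cell receptor, fell by 0.35 ± 0.11. The B cell gene Fcrla rose by 0.71 ± 0.14 at levels of at most 3.98, and it too was not called in the deposited values.

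Innate cells showed few and mixed calls, where 33% of all genes were called. Of 25 macrophage genes 1 rose and 3 fell, and the list means overlapped (5.07 to 5.31 at 6 weeks, 5.12 to 5.21 at 8 weeks). Adgre1, a surface antigen of macrophages, rose by 0.68 ± 0.17 but not in the deposited values, Mertk, a receptor for the uptake of dead cells, fell by 0.94 ± 0.16 and Cd14, the endotoxin co-receptor, by 0.79 ± 0.26. Of 17 dendritic cell genes 1 rose, Irf8 (0.60 ± 0.23, adjusted p = 0.045), whose call was lost without any 1 of 6 of the 9 arrays. Of 13 neutrophil genes 2 rose and 1 fell: Ngp, a granule protein, rose by 0.99 ± 0.12 to 3.47 to 3.65, and Lcn2, a siderophore-binding protein also made by stressed epithelium, fell by 1.30 ± 0.34, a call lost without 6-week mouse 1.

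Inflammatory mediators were mostly not called, where 33% of all genes were. Of 36 chemokines and cytokines 8 rose and 1 fell (median 0.17), but the deposited values called 1 higher and 9 lower (median -0.22). Over all 19938 genes the deposited values called 971 higher and 8576 lower. After quantile normalization the chemokine and cytokine rises numbered 4 without 6-week mouse 1 and 5 without either of the other 6-week mice. Cxcl1, a neutrophil chemokine, read 5.14, 4.96 and 5.04 at 6 weeks and 5.96 to 6.33 at 8 weeks (1.11 ± 0.14, adjusted p = 9e-07) and was called under every scaling. Cxcl2, its homologue, Tnf and Ccl4 rose by 0.92 ± 0.31, 0.76 ± 0.22 and 0.73 ± 0.18, but not in the deposited values. None of 9 MHC class II genes was called. Of 11 genes of MHC class I presentation 1 rose and 1 fell, the latter Psmb10, an immunoproteasome subunit (-1.49 ± 0.20, adjusted p = 3.6e-06). Of 13 interferon-gamma response genes 2 rose, and of 21 type I interferon response genes 1 rose and 2 fell: Oas2, an antiviral RNA sensor, by 1.09 ± 0.25 and Bst2, tetherin, by 1.04 ± 0.26. Of 10 complement genes 1 rose and 2 fell, with a median of 0.31 (-0.01 in the deposited values): C2, a complement protease, rose by 0.59 ± 0.17 (adjusted p = 0.0082) but was not called in the deposited values. C4b, a complement component, read 8.38, 6.70 and 6.74 at 6 weeks and 4.02 to 4.94 at 8 weeks (-2.71 ± 0.41, adjusted p = 1.3e-05), and C1ra, a protease of the first complement component, fell by 1.14 ± 0.23. Mouse 1 had the highest 6-week value of Oas2, Bst2, Psmb10 and C4b, and the fall of Bst2 was not called without it.

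Stromal lists held calls in both directions, where 18.2% of all genes were called higher and 14.8% lower. Of 7 Schwann cell genes 2 rose and 2 fell, and of 8 adipocyte genes 2 rose. Of 18 fibroblast, pericyte and matrix genes 3 fell, led by Acta2, smooth muscle actin (-1.06 ± 0.23), and Tagln, transgelin (-0.64 ± 0.16). Of 14 endothelial genes 4 fell, among them the capillary sialomucin Emcn (-0.55 ± 0.14) and the TGF-beta co-receptor Eng (-0.53 ± 0.13), and 1 rose, the VEGF receptor Kdr (0.37 ± 0.11). The deposited values called 11 of the 18 and 9 of the 14 lower and none higher. Over all 19938 genes they called 8576 lower and 971 higher. The endothelial falls numbered 2 without 6-week mouse 1, 6-week mouse 2 or 8-week mouse 1.

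Metabolic lists held small shifts in both directions, where 33% of all genes were called. Of 24 genes of mitochondrial respiration 8 fell and 1 rose, with Cox5a, a subunit of cytochrome c oxidase, at -0.81 ± 0.12 and Sdhc, a subunit of succinate dehydrogenase, at 0.70 ± 0.11. Of 16 cholesterol synthesis genes 6 rose and 1 fell: Idi1, the isopentenyl diphosphate isomerase, rose by 0.79 ± 0.13 and Stard4, a sterol carrier, by 0.74 ± 0.14. In glycolysis and hypoxia 5 of 17 rose, such as the aldolase Aldoa (0.61 ± 0.07, not called in the deposited values), and 2 fell, among them Car9, a carbonic anhydrase induced by hypoxia (-1.06 ± 0.17). In fatty acid metabolism 4 of 16 rose and 4 fell, with Acly, ATP citrate lyase, at 0.84 ± 0.10 and Cd36, the fatty acid translocase, at -1.42 ± 0.32. The deposited values called 1 higher and 15 lower in respiration and 5 and 5 in cholesterol synthesis. In glycolysis and hypoxia they called 3 and 4, and in fatty acid metabolism 1 and 6. Their counts over all 19938 genes were 971 higher and 8576 lower.

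Which of these differences belonged to Rag1ko islets was tested by comparing the age differences of the genotypes, in which an offset shared by all arrays of one age cancels. NOD islets had 7521 genes called between the ages (37.7%) and Batf3ko islets 6210 (31.1%). Of the 6575 genes called in Rag1ko, 4016 (61.1%) were also called with the same sign in NOD and 4172 (63.5%) in Batf3ko. The age difference of NOD minus that of Rag1ko was called for 625 genes (3.13%), 291 higher and 334 lower, and for 411 without Rag1ko 6-week mouse 1. Batf3ko minus Rag1ko was called for 5 genes (0.0251%), while 1494 had an unadjusted p under 0.05 (7.49%).

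Immediate early genes differed often between NOD and Rag1ko. Of the 34 immediate early genes 20 had a lower age difference in NOD than in Rag1ko and none a higher one, against 1.68% and 1.46% of all genes, and the list median was -1.14 in NOD, 0.05 in Batf3ko and 0.46 in Rag1ko. Fosb fell by 1.68 in NOD and rose by 2.52 in Rag1ko (difference -4.20, adjusted p = 8.8e-06). Its levels were 11.23 to 11.35 in NOD and 7.61 to 8.95 in Rag1ko mice of 6 weeks, and 8.59 to 10.25 and 9.72 to 11.41 at 8 weeks, so the genotypes were furthest apart at 6 weeks. Nr4a1 followed the same order, from 9.15 to 9.57 in NOD and 6.67 to 7.51 in Rag1ko at 6 weeks to overlapping ranges at 8 weeks (difference -3.28, adjusted p = 0.00022). Atf3, a stress-induced repressor, differed by -4.08, Gem by -3.23, Ier2 by -3.15, Npas4 by -3.31 and Junb by -2.60. Fam71a, the neighbour of Atf3 in the RefSeq order of chromosome 1, differed by -4.13, and Polg2 by -3.96, from 8.67 to 9.07 in NOD and 5.69 to 6.22 in Rag1ko at 6 weeks. In each of these 9 genes the 6-week Batf3ko mice lay below the 6-week NOD mice and overlapped the Rag1ko mice in range, with Fosb at 8.66 to 10.06 and Polg2 at 5.98 to 7.02.

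Heat shock and clock genes differed from NOD in the same direction. A lower age difference in NOD was called for 6 of 15 and 9 of 16, against 1.68% of all genes. A higher one was called for 1 clock gene, Arntl (1.71, limma adjusted p = 0.0017), against 1.46% of all genes. Dnajb1 differed by -2.43, Hsph1 by -1.61 and Hspa1a by -1.38, the last rising in all 3 genotypes, by 0.97 in NOD and 2.70 in Batf3ko. Cry2 differed by -2.15, Per1 by -2.11 and Nr1d1 by -1.78. Mir7b fell by 1.07 in NOD (difference -3.05, adjusted p = 0.00033) and Mir7-2 by 1.67 (difference -2.68, adjusted p = 0.0023), whereas the difference of Mir7-1 was not called (adjusted p = 0.1). Ddit4 and Herpud1 also differed, by -1.61 and -1.16.

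**Figure D4:**
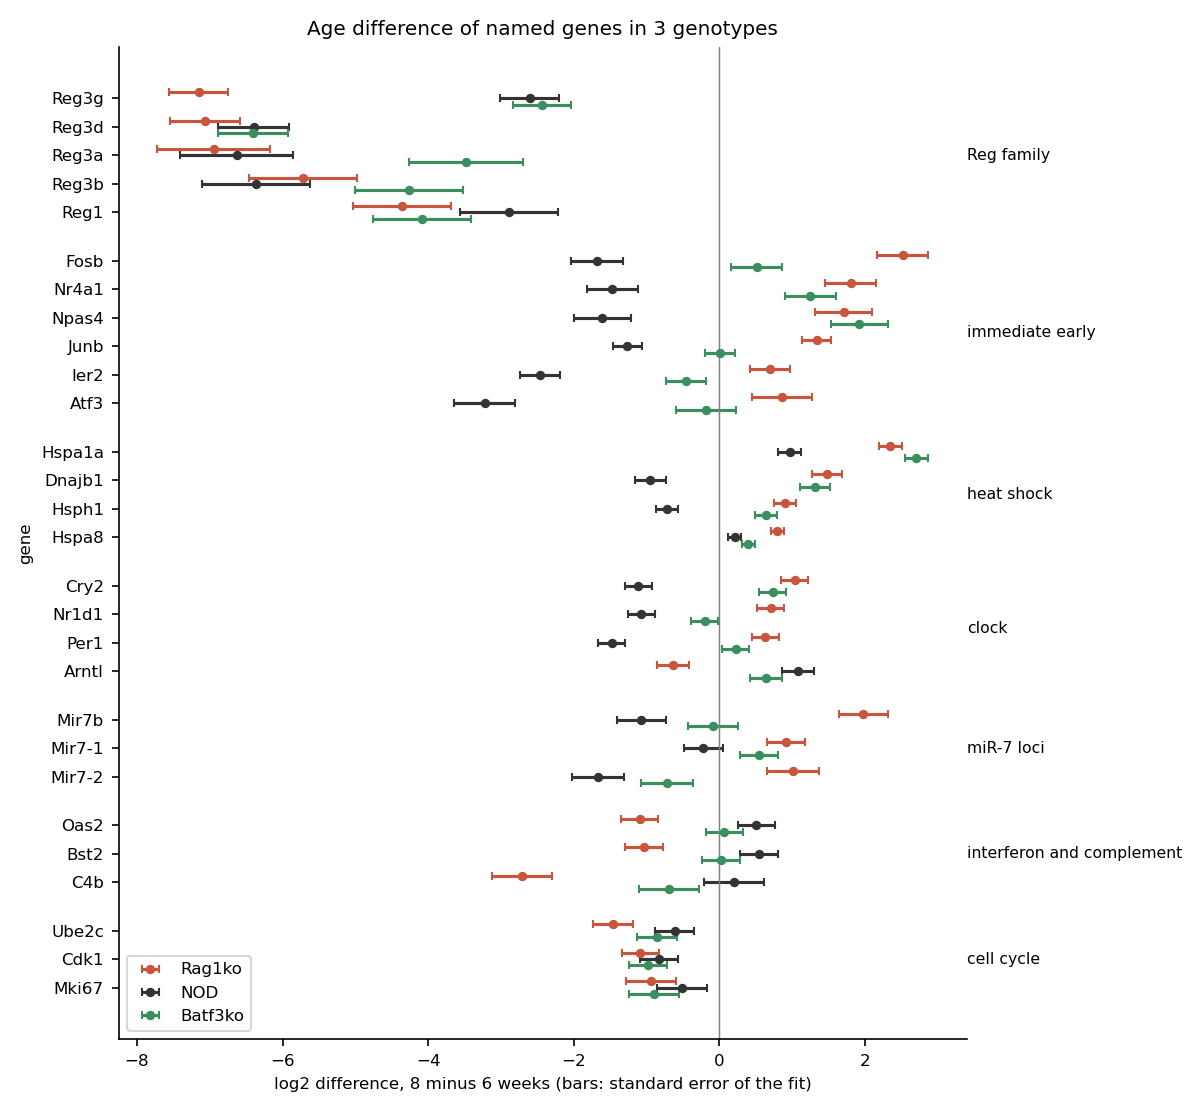
Log2 difference of 8 minus 6 weeks with its standard error for named genes in Rag1ko, NOD and Batf3ko islets. The immediate early genes lie above 0 in Rag1ko and below 0 in NOD, and Reg3g lies near -7.15 in Rag1ko against -2.61 in NOD and -2.43 in Batf3ko.

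Genes with a higher age difference in NOD than in Rag1ko (1.46% of all genes, against 1.68% lower) included some of inflammation and stroma. Of 18 fibroblast, pericyte and matrix genes 5 were called higher, and of 14 endothelial genes 2, with none lower. Among 10 complement and 21 type I interferon response genes, 2 each were called higher and none lower. Of 36 chemokines and cytokines and of 13 interferon-gamma response genes, none was higher and 1 each was lower. No gene of the MHC class I, MHC class II or T cell lists was called. C4b, which fell in Rag1ko, was not called in NOD (0.20, adjusted p = 0.73), and its difference of 2.91 was called (adjusted p = 0.0035). Plac8, a gene of myeloid and lymphoid cells, rose by 2.88 in NOD and did not pass in Rag1ko (-0.12), Lum, a matrix proteoglycan of fibroblasts, rose by 2.20 in NOD (difference 2.80, adjusted p = 0.0099), and Clec2d, a ligand of NK cell receptors, differed by 2.18. Lgals9, the immune regulator galectin-9, read 9.86, 8.38 and 8.23 in Rag1ko mice of 6 weeks and 6.32 to 6.70 at 8 weeks (-2.32 ± 0.27, adjusted p = 3.5e-07) and was not called in NOD (-0.21; difference 2.11, adjusted p = 0.0015). Oas2, Bst2 and Mgst1 differed by 1.60, 1.58 and 1.98. Cd3g rose by 2.75 in NOD and was not called in Rag1ko (0.54), with a difference just outside the threshold (adjusted p = 0.052).

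Reg3g, Noxa1, Snu13 and Snord82 were called in both differences, with NOD and with Batf3ko. Reg3g had the largest of them, with a difference of 4.55 from NOD (adjusted p = 1.4e-05) and 4.72 from Batf3ko (adjusted p = 0.00015). At 8 weeks its levels overlapped in the 3 genotypes (2.27 to 4.74 in Rag1ko, 2.42 to 3.16 in NOD and 2.59 to 3.06 in Batf3ko), and at 6 weeks they were 9.59 to 10.70 in Rag1ko against 5.03 to 5.91 and 4.41 to 6.35. Reg3d, which fell as far in Rag1ko, did not differ by call from either (adjusted p = 0.69 and 0.91). The other genes whose age difference was called between Batf3ko and Rag1ko were Noxa1, an activator of NADPH oxidase, which fell by 2.20 ± 0.22 in Rag1ko (difference 1.72 from Batf3ko, adjusted p = 0.035), Snu13, a spliceosome and snoRNA protein (0.66, adjusted p = 0.035), Ppme1, a protein phosphatase methylesterase (-0.74, adjusted p = 0.018), and the small nucleolar RNA Snord82 (-2.33, adjusted p = 0.0048), the last named after its values were seen.

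**Figure D5:**
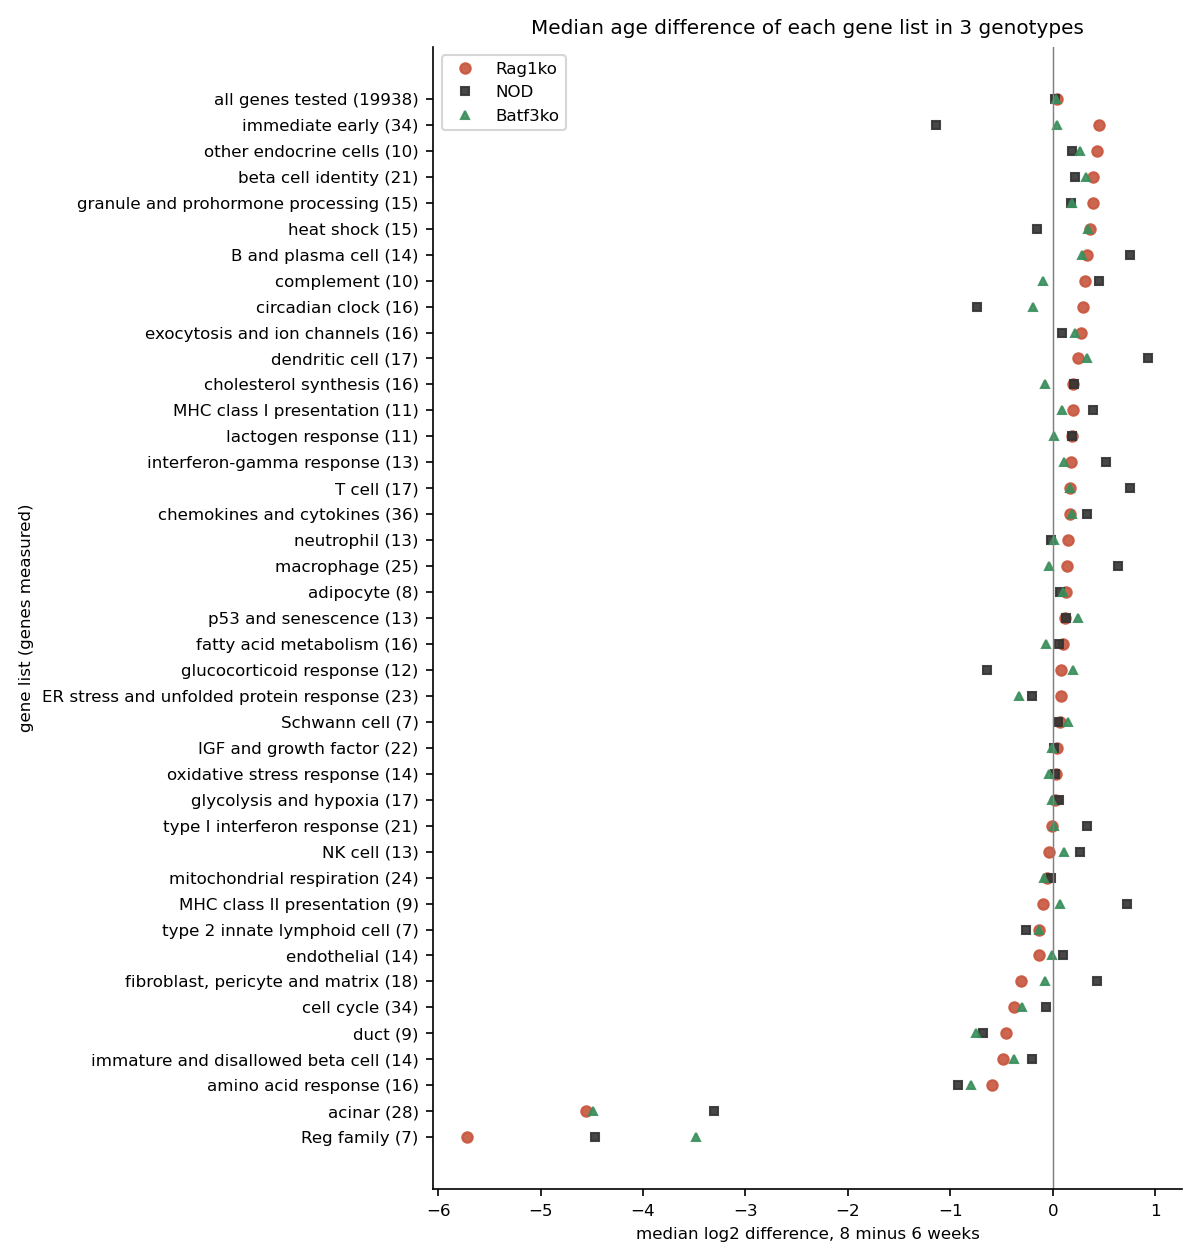
Median log2 difference (8 minus 6 weeks) of each of the 40 gene lists and of all genes in Rag1ko, NOD and Batf3ko islets, with the number of genes measured in brackets. The acinar and Reg medians lie far to the left in all 3 genotypes, and the immediate early median is 0.46 in Rag1ko, 0.05 in Batf3ko and -1.14 in NOD.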

How the data were processed

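The 9 Rag1ko arrays, with the 18 NOD and Batf3ko arrays of the series, were analysed from the authors' table of log2 values. Per the series' design text, the authors made these with RMA, a background correction, normalization and summary of probe intensities, in Arraystar; the submitters' processing notes name Affymetrix Expression Console and mm9, with no version or role given. Because the deposited arrays of the 2 ages differed in distribution, the log2 values were quantile normalized over the 27 arrays. Of 30177 probe sets, 21789 named 1 gene symbol, 1621 several and 6767 none in the platform annotation; genes were taken from the first class only, and for the 999 genes with several probe sets the one with the highest mean was kept. Some genes of the lists were not analysed here. Nothing was filtered out as low. An array gives no read depth, so the number of arrays limits the precision.

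limma 3.58.1 (R 4.3.3) fitted the 6 groups of age and genotype on all 27 arrays, with 21 residual degrees of freedom and no covariate, and p-values were adjusted by the Benjamini-Hochberg method over 19938 genes. Contrasts were 8 minus 6 weeks in each genotype and the differences of NOD or Batf3ko from Rag1ko; both of these share the Rag1ko arrays. P-values measure the spread between mice. The members and the 40 gene lists were chosen with earlier results of these data known. The text names Rag1, the 15 highest and 15 lowest called genes without overlap (predicted genes, RIKEN clones, microRNAs, snoRNAs and antigen receptor segments left out), up to 5 of each list, and up to 8 per direction of each difference between genotypes. The rule also took in defining markers of islet hormone cells and of mature lymphocytes. Cd4 apart, it gave 136 of the 147 genes named, and 11 were chosen after their values were seen. The code was checked on simulated data.

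Alternatives were the deposited values, median centring, quantile normalization of the 9 Rag1ko arrays alone, a fit of these 9, a filter on low values, every probe set, a replicate block, eBayes with trend, the acinar mean as a covariate, equal group sizes, and leaving out each Rag1ko mouse. Same-numbered mice did not deviate together (correlations of -0.02, 0.04 and -0.00), so numbers do not pair them. Promoters and microRNAs are RefSeq sequences (GRCm38.p6).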

Additional observations from a re-analysis of the deposited data

Results flagged for a closer look

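In 187 sets of 6 eight-week Rag1ko values, of named genes and list means, 1 mouse stood apart from the other 5 by Dixon's criterion in 19; chance gives about 1 in 20. The values here are log2 levels. Mouse 6 had the highest Reg3g (4.74, median 2.51), Reg3b (8.91, median 6.42), Tmed11 (2.87, median 2.20) and Tspan8 (8.14, median 7.89), and the lowest Igf1 (3.17, median 3.86), Cryab (4.48, median 5.11) and Snu13 (9.52, median 9.75). Its Reg3g, Reg3b and Tmed11 lay nearest to the 6-week mice of the 6, and below all of these. Mouse 2 had the lowest Hspa1a (9.32, median 9.99), Dnajb1 (8.15, median 9.05), Hsph1 (9.10, median 9.80), Mir7b (8.22, median 8.85) and Cd3d (2.25, median 3.01), and the highest Ube2c (5.79, median 4.45). In each of these but Cd3d, mouse 2 was the 8-week mouse nearest to the 6-week group. Mouse 1 had the highest Gcg (13.30, median 13.13) and Mir7-1 (5.89, median 4.94) and the lowest Sdhc (9.21, median 9.60). Mouse 3 had the lowest Mir216b (2.09, median 2.33), and mouse 5 the lowest mean of the T cell list (3.88, median 4.06) and of the fatty acid list (6.77, median 6.86).

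The age difference of NOD minus that of Rag1ko was called by limma (adjusted p under 0.05) for 39 of the genes named. Among immediate early genes it was -4.20 for Fosb, -4.08 for Atf3, -3.31 for Npas4, -3.28 for Nr4a1, -3.15 for Ier2 and -2.60 for Junb. Outside the lists, it was -4.13 for Fam71a, -3.96 for Polg2 and -3.23 for Gem. Heat shock genes gave -2.43 for Dnajb1, -1.61 for Hsph1, -1.38 for Hspa1a and -0.59 for Hspa8, which encodes the constitutive HSP70. Clock genes gave -2.15 for Cry2, -2.11 for Per1, -1.78 for Nr1d1 and 1.71 for Arntl. Short RNAs gave -3.05 for Mir7b, -2.68 for Mir7-2, -2.18 for Snord82 and -0.91 for Rpph1. Other negative values were -1.84 for Cxcl2, -1.61 for Ddit4, -1.57 for Slc10a1 and -1.16 for Herpud1. Positive values, where the age difference was higher in NOD, were led by 4.55 for Reg3g, 3.00 for Plac8, 2.91 for C4b, 2.80 for Lum, 2.18 for Clec2d and 2.11 for Lgals9. They went on with 1.98 for Mgst1, 1.60 for Oas2, 1.58 for Bst2, 1.27 for Noxa1, 1.14 for Acta2, 0.97 for Eng, 0.89 for Cox5a and 0.59 for Snu13.

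The same comparison of Batf3ko with Rag1ko gave 4.72 for Reg3g, 1.72 for Noxa1, 0.66 for Snu13, -0.74 for Ppme1 and -2.33 for Snord82. Reg3g, Noxa1, Snu13 and Snord82 thus differed from Rag1ko in both genotypes and in the same direction, but the comparisons share the Rag1ko arrays.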

How the results depend on the processing

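The 6575 genes called between the ages in Rag1ko islets numbered 4441 to 6339 without 1 mouse, 4656 with the replicate block (6 residual degrees of freedom; the numbers pair no mice) and 1397 with the acinar mean as a covariate, which nearly follows age. Their counts under the other alternatives were 4415 to 9547. The 625 genes that differed between NOD and Rag1ko numbered 135 with the replicate block, 367 with mice 1 to 3 of each age, and 411 (without 6-week mouse 1) to 585 without 1 mouse. The 5 genes that differed between Batf3ko and Rag1ko numbered 31 with the filter on low values, which tests 11668 genes, 19 with every probe set, 47 with eBayes with trend, 9 with the covariate, 1 with the replicate block, and 3 (without 8-week mouse 6) to 9 (without 8-week mouse 1); this count is thus the least stable. Directions turned in the deposited values for Ins2 (-0.30, adjusted p = 0.0011), Iapp (-0.20, adjusted p = 0.026) and Chga (-0.11, adjusted p = 0.31), and with the covariate for Sycn (0.14, adjusted p = 0.77), Reg1 (0.85, adjusted p = 0.031) and Reg2 (2.25, adjusted p = 0.20); the cause was not tested. Of the 147 named genes, calls lost without a change of direction numbered 53 with the covariate, 20 in the deposited values, 14 without 6-week mouse 1, 13 with the replicate block and 4 after median centring. Levels near the bottom of the log2 scale, such as those of Cd3d, have no detection call here.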
